A study of Mus musculus with 24 samples.

Results

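Expression of 10 genes of the Nrf2 and oxidative stress defence system was followed in the livers of mice dosed with diethylhexylphthalate (DEHP), a phthalate plasticiser and rodent peroxisome proliferator. The genes were taken from a list: the transcription factor Nrf2 (gene Nfe2l2), its inhibitor Keap1, and the antioxidant genes Srxn1, Txnrd1, Gclc, Gclm, Nqo1, Hmox1, Sod1 and Gpx1. All 10 were measured among the 18194 genes on the arrays. They carried 23 probe sets, and the brightest probe set of a gene, by its mean on the 24 arrays, stood for the gene. Male B6C3F1 mice, aged 7 to 10 weeks on arrival, received DEHP at 1150 mg/kg/day by oral gavage in 10 ml/kg of corn oil, or corn oil alone, every 24 h for 3 days. Liver RNA of the times 2, 8, 24 and 72 h was hybridised to 24 arrays, with 3 arrays in each of 8 groups. Whether those 3 were separate animals, and how many doses the 24 h and 72 h livers had received, is not stated in the labels. The p-values therefore measure the spread between these samples only, which may be technical.

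Nrf2 is a transcription factor that is held in the cytoplasm and passed to the proteasome by Keap1, a sensor whose cysteines react with oxidants and electrophiles. When Keap1 is modified, Nrf2 reaches the nucleus, pairs with a small Maf protein and binds the antioxidant response element of genes for glutathione synthesis, thioredoxin and quinone reduction, and drug conjugation. In liver this system protects hepatocytes against reactive drug metabolites. Peroxisome proliferators are known for raising the peroxisomal oxidation of fatty acids, which releases hydrogen peroxide. Much of the control of Nrf2 and Keap1 acts on their proteins, which arrays do not measure.

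Of the 10 genes, 3 changed with DEHP and 7 were not called at any time. Sulfiredoxin (Srxn1) rose 2.18-fold at 8 h and was not called at 24 h or 72 h, when the groups overlapped. Haem oxygenase 1 (Hmox1) rose 1.49-fold at 8 h and was 1.59-fold lower than corn oil at 72 h. Thioredoxin reductase 1 (Txnrd1) was 1.32-fold lower at 72 h. Nfe2l2, Keap1, both subunits of glutamate-cysteine ligase (Gclc and Gclm), Nqo1, Sod1 and Gpx1 did not pass the test at 2, 8, 24 or 72 h. All values below are log2 signals as the authors computed them with RMA, differences are DEHP minus corn oil on that log2 scale with their standard error (SE), and a gene was called where its adjusted p in limma, over 18194 genes, was under 0.05.

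**Figure D1:**
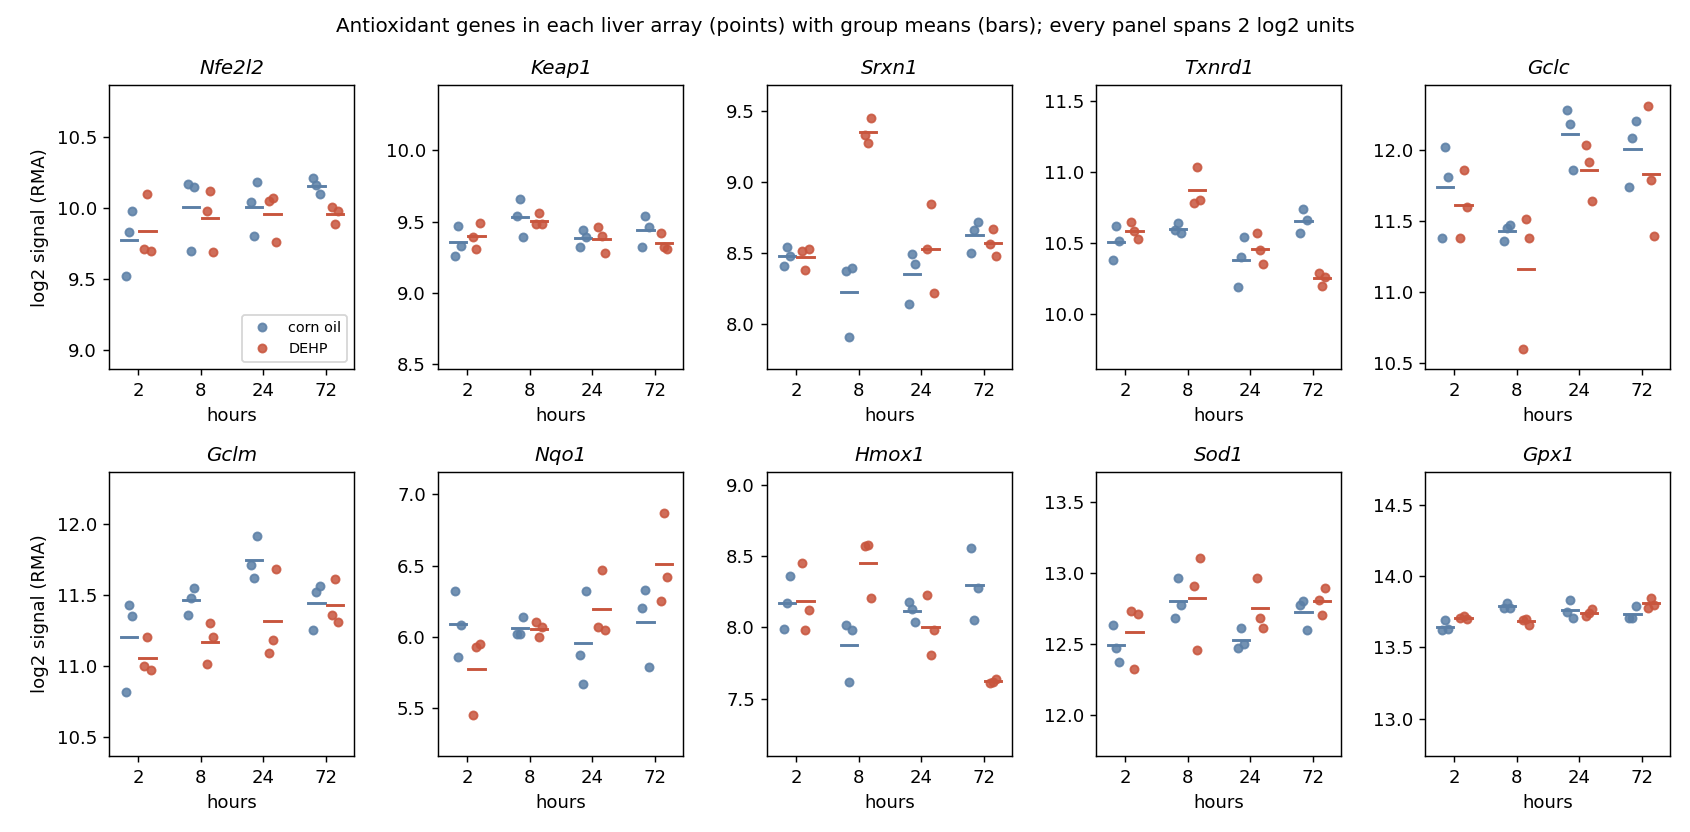
Log2 signal of each of the 10 genes on every array (points) with group means (bars), corn oil in blue and DEHP in red, at 2, 8, 24 and 72 h. The DEHP arrays of Srxn1 stand at 9.27 to 9.45 at 8 h against 7.91 to 8.39 with corn oil, the DEHP arrays of Hmox1 stand at 7.61 to 7.64 at 72 h against 8.05 to 8.56, and Gpx1 spans 0.24 over all 24 arrays.

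The start regions of the genes were searched for the core of the antioxidant response element and for the AP-1 site, since Nrf2 and AP-1 are the factors most often tied to this group of genes. The core was spelled TGACNNNGC and the AP-1 site TGANTCA, each on both strands, in RefSeq windows of 300 bases on GRCm38.p6 (250 before the start site and 50 after it). The table gave windows for 8 of the 10 genes, without Gclc and Hmox1. These genes had 10 windows, since Txnrd1 had 3. The core occurred in 5 of the 10 windows, 1 for each of 5 genes, against 12.4% of all 32851 windows, and the AP-1 site in 1 of 10, against 7.81%. The 250 bases before the start are given for Srxn1, the gene with the largest rise, for a start of Txnrd1 that holds the core, and for Gclm, which holds the core and was not called, each 5′ to 3′ with the matches in capitals. They lie at chr2:152105274-152105523, chr10:82858956-82859205 and chr3:122245307-122245556, all on the plus strand.
Srxn1: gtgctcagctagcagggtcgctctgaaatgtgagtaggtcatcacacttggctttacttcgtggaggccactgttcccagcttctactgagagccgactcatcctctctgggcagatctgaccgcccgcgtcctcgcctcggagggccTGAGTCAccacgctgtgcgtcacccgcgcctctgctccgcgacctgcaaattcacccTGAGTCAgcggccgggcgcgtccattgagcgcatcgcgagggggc
Txnrd1: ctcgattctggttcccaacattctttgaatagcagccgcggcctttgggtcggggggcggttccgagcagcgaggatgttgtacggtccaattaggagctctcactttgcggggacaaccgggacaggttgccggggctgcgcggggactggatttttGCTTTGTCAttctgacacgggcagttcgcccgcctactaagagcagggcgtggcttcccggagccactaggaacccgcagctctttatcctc
Gclm: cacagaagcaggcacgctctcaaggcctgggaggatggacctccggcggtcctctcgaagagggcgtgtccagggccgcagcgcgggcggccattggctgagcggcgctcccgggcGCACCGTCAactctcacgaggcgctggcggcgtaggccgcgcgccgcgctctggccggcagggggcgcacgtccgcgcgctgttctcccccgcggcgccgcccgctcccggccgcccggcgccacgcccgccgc
The capitals in Srxn1 are AP-1 sites whose first bases stand at positions -102 and -45 from the start, and its match to the core lies at position 29, past the printed stretch. The site at -45 runs on as TGAGTCAgc, which differs from the searched core by 1 letter, G in place of C. Both sites, at -102 and -45, follow cc. Read on the minus strand, ccTGAGTCA also differs from the searched core by 1 letter. Other spellings of the core were not searched. The capitals in Txnrd1 (position -92) and Gclm (position -134) are the core, read on the minus strand. The other cores were in Nfe2l2 (position -240) and Sod1 (position -56). No core of the searched spelling overlapped an AP-1 site in these windows. A gene that rose (Srxn1), a gene that was not called at 8 h by its chosen probe set (Txnrd1) and genes called at no time (Gclm, Nfe2l2, Sod1) all held the core. A match is a run of letters and not a bound site, and a window without one says only that these letters are not in it.

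At 2 h none of the 10 genes was called by limma, none had an unadjusted p under 0.05, and 0.83% of all genes were called (0.616% higher and 0.214% lower). The arrays of the groups separated for 1 of the 10 (Gpx1), against 11.4% of all genes. The median difference of the 10 genes was 0.03, against -0.02 over all genes. The livers were already responding at that time. Of 10 measured genes of the peroxisome proliferator response, 6 had risen, among them Pdk4, a kinase that spares glucose, with a difference of 4.96 ± 0.27 (adjusted p = 1.47e-10), and Cyp4a14, a fatty acid hydroxylase, with 4.44 ± 0.40 (adjusted p = 1.19e-06). At the same time Srxn1 differed by -0.01 ± 0.13, Hmox1 by 0.01 ± 0.15 and Txnrd1 by 0.08 ± 0.09. The 95% intervals of these differences were -0.28 to 0.27 for Srxn1, -0.29 to 0.31 for Hmox1 and -0.11 to 0.28 for Txnrd1.

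At 8 h, 2 of the 10 genes were called, both higher, against 4.13% of all genes called and 1.28% called higher and 2.86% called lower. The median of the 10 genes was -0.01 and that over all genes -0.02. The groups did not overlap for 5 of the 10 genes, 3 with higher and 2 with lower DEHP arrays, against 18.6% of all genes.

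Srxn1 encodes sulfiredoxin, which restores over-oxidised peroxiredoxins and is a textbook Nrf2 target. Its corn oil arrays at 8 h read 8.37, 7.91 and 8.39. Its DEHP arrays read 9.33, 9.27 and 9.45. Every DEHP array was above every corn oil array, and the lowest corn oil reading was replicate 2. The difference was 1.12 ± 0.13 (95% interval 0.85 to 1.40, adjusted p = 1.85e-05). At 24 h the difference was 0.18 ± 0.13 (adjusted p = 0.762), and at 72 h it was -0.05 ± 0.13 (adjusted p = 0.86). At 24 h the DEHP arrays of Srxn1 read 8.53, 8.84 and 8.22, so that they spread wider than the 3 at 8 h and overlapped the corn oil arrays (8.14 to 8.49).

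The rise of Srxn1 was tested for its timing. The effect at 8 h exceeded that at 2 h by 1.13 ± 0.19 (adjusted p = 0.00681), a contrast called for 0.418% of all genes. The effect at 24 h minus that at 8 h was -0.95 ± 0.19 (adjusted p = 0.0214), against 0.467% of all genes. The same course was seen within the DEHP livers, where Srxn1 gained 0.88 ± 0.13 from 2 h to 8 h (adjusted p = 0.000226, with 4% of all genes called) and changed by -0.82 ± 0.13 from 8 h to 24 h (adjusted p = 0.000293, with 5.55% called). In the corn oil livers Srxn1 differed by -0.25 ± 0.13 between 2 h and 8 h (adjusted p = 0.38), with 4.06% of all genes called. Averaged over the 4 times, Srxn1 was the only one of the 10 genes called, at 0.31 ± 0.07 (adjusted p = 0.00591), against 6.41% of all genes called and 1.98% called higher. Gclm was called as well, 2 of the 10 in all, with the mean of all probe sets, with array weights and with the first arrays of the groups set against the later ones as a block, and an added 1.5-fold threshold left 0.

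Srxn1 has 4 probe sets, and 3 of them showed the rise at 8 h. The chosen probe set gave 1.12, and the others that rose gave 1.09 ± 0.13 and 1.21 ± 0.14. The last probe set annotated to Srxn1 gave 0.00 ± 0.07 at 8 h. Its mean was 8.20 in both groups at 8 h, and its differences at the other times lay between -0.15 and 0.03.

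Hmox1 encodes the inducible enzyme that opens haem to biliverdin, iron and carbon monoxide, and it is made in Kupffer cells, the macrophages of the liver, as well as in hepatocytes. Its corn oil arrays at 8 h read 8.02, 7.62 and 7.98. Its DEHP arrays read 8.57, 8.58 and 8.21. The groups did not overlap, and the gap between the highest corn oil and the lowest DEHP array was narrower than the spread within either group. The difference was 0.58 ± 0.15 (95% interval 0.28 to 0.88, adjusted p = 0.0225). This call was lost without corn oil replicate 2 (0.45, adjusted p = 0.154), without DEHP replicate 1 (0.52, adjusted p = 0.111) and without DEHP replicate 2 (0.52, adjusted p = 0.0783).

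Corn oil replicate 2 at 8 h stood apart from the other arrays. The 3′ probe set of Actb exceeded the 5′ probe set by 1.46 there, against 0.50 to 0.82 on the other 23 arrays, and the 18S control read 12.58. The macrophage markers of that array averaged -0.60 from their mean over all arrays, against 0.25 and 0.35 in the other corn oil arrays at 8 h. The sinusoidal endothelium markers of that array averaged -0.70, against 0.00 and 0.28 in the others. Among the 8 h arrays it held the lowest reading of both Srxn1 and Hmox1. Without it Srxn1 was still called, at 0.97 (adjusted p = 0.000185), and Hmox1 was not. The part of RNA quality in the 8 h values was not tested beyond this and a fit with the Actb difference as a covariate, in which Srxn1 differed by 0.96 (adjusted p = 0.000575) and Hmox1 by 0.48 (adjusted p = 0.196).

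Txnrd1 encodes the cytosolic selenoenzyme that keeps thioredoxin reduced. Its corn oil arrays at 8 h read 10.59, 10.64 and 10.57, and its DEHP arrays read 10.78, 11.03 and 10.80. The groups did not overlap, but the difference of 0.27 ± 0.09 did not pass (adjusted p = 0.116). The other probe sets of Txnrd1 gave 0.57 ± 0.16 (adjusted p = 0.0606) and 0.43 ± 0.10 (adjusted p = 0.0205) at 8 h, the latter past the threshold over all probe sets.

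**Figure D2:**
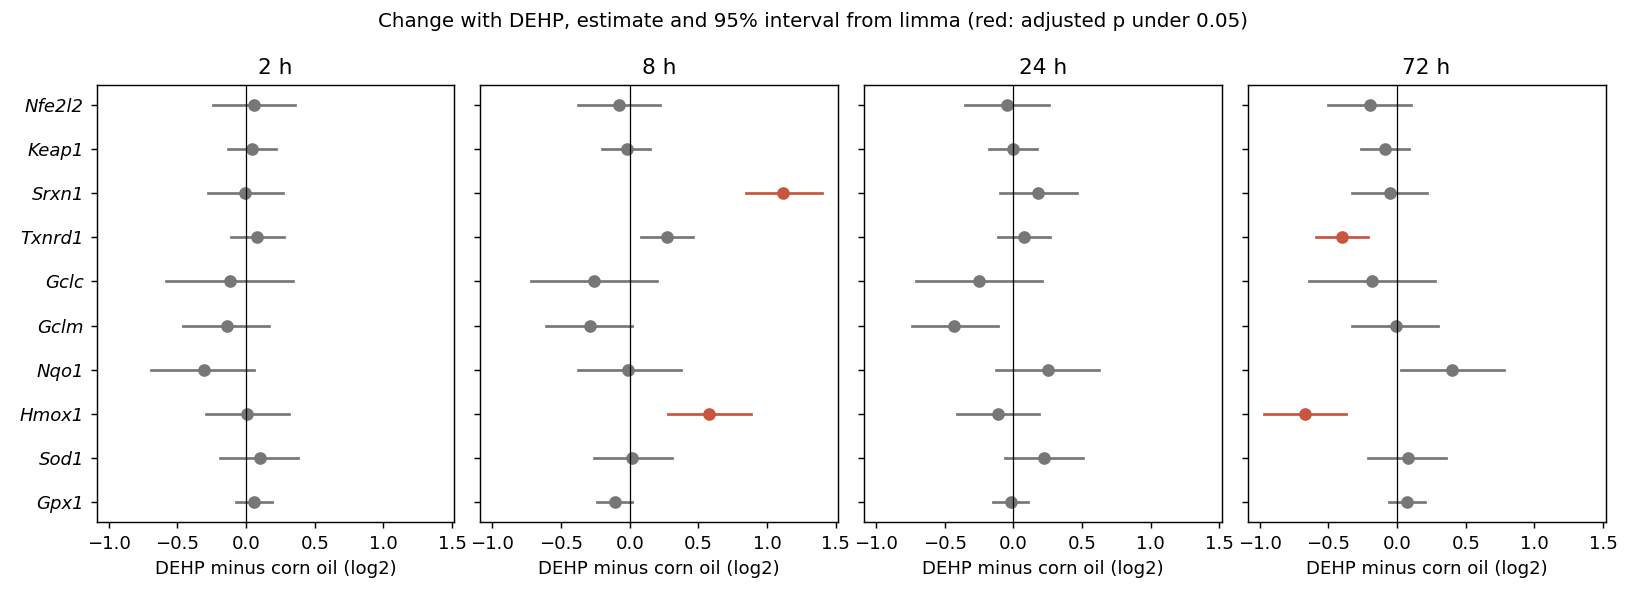
DEHP minus corn oil for the 10 genes at each time on the log2 scale, with 95% intervals from limma over 3 against 3 arrays, and called genes in red. At 8 h Srxn1 (1.12) and Hmox1 (0.58) lie right of 0, at 72 h Txnrd1 (-0.40) and Hmox1 (-0.67) lie left of it, and no gene is called at 2 h or 24 h.

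At 24 h none of the 10 genes was called by limma, against 0.297% of all genes (0.253% higher and 0.044% lower), and 1 (Gclm) had an unadjusted p under 0.05. Their median difference was -0.01, against 0.00 over all genes, and in none of the 10 did the groups separate, against 13.8% of all genes. Of the 10 genes of the peroxisome proliferator response, 5 were called higher at this time, among them Cyp4a14 at 4.86 ± 0.40 (adjusted p = 1.37e-07). Pdk4 was not called at 24 h, at 1.00 ± 0.27 (adjusted p = 0.212).

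At 72 h, 2 of the 10 genes were called, both lower, against 4.18% of all genes called, 3.05% lower and 1.13% higher. The median of the 10 genes was -0.07, against -0.03 over all genes. The groups separated for 3 of the 10, all lower, against 28.2% of all genes. Hmox1 read 8.56, 8.05 and 8.28 on the corn oil arrays and 7.61, 7.62 and 7.64 on the DEHP arrays. The 3 DEHP arrays lay within 0.03 of each other and below every other array of the series except corn oil replicate 2 at 8 h, which read 7.62. Hmox1 fell by 0.67 ± 0.15 against corn oil (95% interval -0.97 to -0.37, adjusted p = 0.0119), and it was called in all 6 fits that left out an array of this time, with differences from -0.80 to -0.54.

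Txnrd1 at 72 h read 10.57, 10.74 and 10.66 on the corn oil arrays and 10.29, 10.20 and 10.26 on the DEHP arrays. The groups did not overlap. Txnrd1 fell by 0.40 ± 0.09 against corn oil (95% interval -0.59 to -0.21, adjusted p = 0.0184). The call was lost without corn oil replicate 2 (-0.36, adjusted p = 0.092) or 3 (-0.40, adjusted p = 0.0579) and without DEHP replicate 2 (-0.38, adjusted p = 0.0802) or 3 (-0.41, adjusted p = 0.0602). Its other probe sets gave -0.32 ± 0.16 and -0.28 ± 0.10 and were not called, although their arrays were separated in the same direction.

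For Srxn1, Hmox1 and Txnrd1 the effect of DEHP differed between the times. The F test for a difference between times gave an adjusted p of 0.00228 for Srxn1, 0.00911 for Hmox1 and 0.026 for Txnrd1, so 3 of the 10 genes passed, against 2.08% of all genes. With the Actb covariate 1 of the 10 passed, Srxn1. The effect at 72 h minus that at 8 h was -1.25 ± 0.21 for Hmox1 (adjusted p = 0.00201), -1.18 ± 0.19 for Srxn1 (adjusted p = 0.00162) and -0.67 ± 0.13 for Txnrd1 (adjusted p = 0.0092). That contrast was chosen after the values were seen, and 1.41% of all genes passed it. The same 3 genes passed the F test for an effect at any time, against 6.46% of all genes. In the corn oil livers none of the 10 differed between times by limma's F test, against 3.55% of all genes, while 4 had an unadjusted p under 0.05.

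Markers of macrophages were also lower with DEHP at 72 h. Of 12 Kupffer cell and macrophage markers, 6 were called lower with DEHP at 72 h and none was positive, with a median of -0.73. The list averaged 0.09 to 0.55 relative to its mean over the series with corn oil and -0.47 to -0.14 with DEHP. The list and Hmox1 were both low on some arrays and differed on others, and their relation was not tested. Corn oil replicate 2 at 8 h had the list at -0.60 and Hmox1 at 7.62, and the DEHP arrays at 72 h were also low in both. DEHP replicate 3 at 24 h had the list at -0.40 and Hmox1 at 7.98. Corn oil replicate 1 at 24 h had the list at -0.15 and Hmox1 at 8.18, against -0.14 and 7.64 on DEHP replicate 3 at 72 h. All 10 markers of the sinusoidal endothelium were also negative (median -0.36), none of them called. The average of the 9 measured hepatocyte markers lay between -0.09 and 0.12 of its mean over the series on every array. Of these markers Hnf4a was called lower at 72 h (-0.46 ± 0.11, adjusted p = 0.0221) and Tat higher at 8 h (0.67 ± 0.10, adjusted p = 0.00038). Albumin (Alb) read 14.45 on average. In whole tissue, fewer cells of a type and less RNA per cell cannot be told apart, and the part of the macrophage markers in the 72 h values of Hmox1 and Txnrd1 was not tested. At 8 h none of the 12 macrophage markers was called and their median was 0.00.

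**Figure D3:**
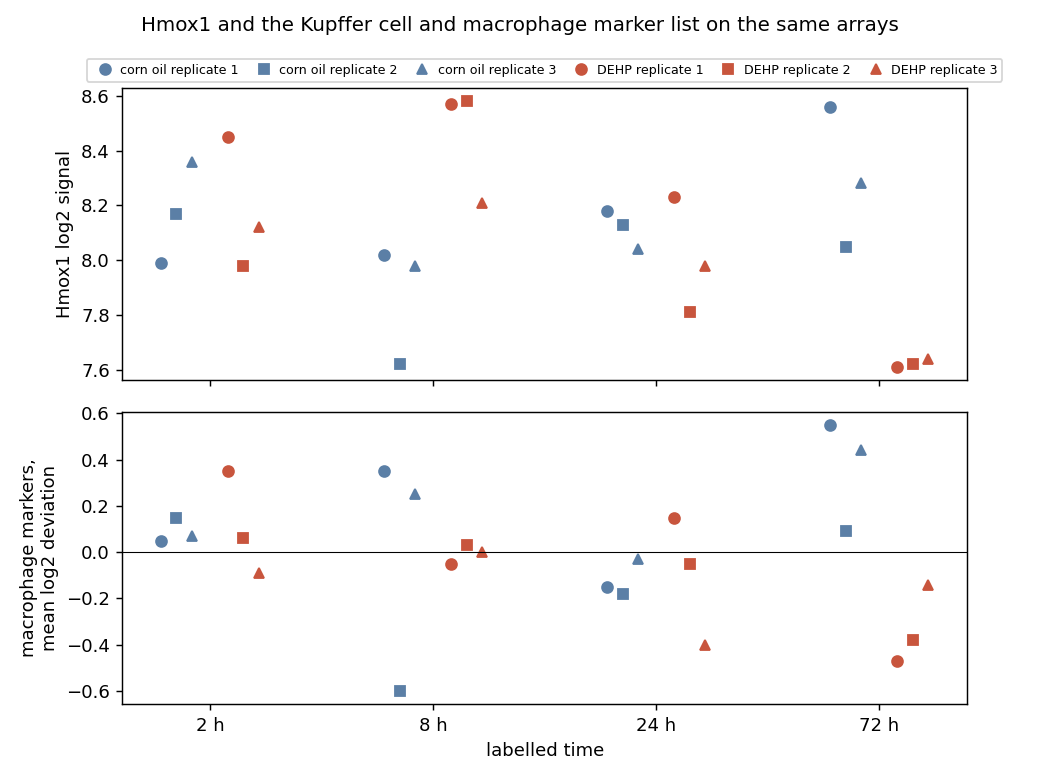
Log2 signal of Hmox1 (upper panel) and the mean log2 deviation of 12 Kupffer cell and macrophage markers (lower panel) on the same 24 arrays, by compound, replicate and labelled time. At 72 h the DEHP arrays are lower in both panels, with Hmox1 at 7.61 to 7.64 and the markers at -0.47 to -0.14, and corn oil replicate 2 at 8 h is low in both, at 7.62 and -0.60. DEHP replicate 3 at 24 h is low in the markers (-0.40) with Hmox1 at 7.98.

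The regulators Nfe2l2 and Keap1 were not called at any time. Nfe2l2 differed by 0.06, -0.08, -0.05 and -0.20 at 2, 8, 24 and 72 h, each ± 0.15. At 72 h its 3 DEHP arrays (9.89 to 10.01) all lay below its corn oil arrays (10.10 to 10.21), with an adjusted p of 0.456 and a 95% interval of -0.50 to 0.10. A second, dimmer probe set of Nfe2l2 gave 0.44 ± 0.16 at 72 h, of the opposite sign (adjusted p = 0.137). Keap1 differed by 0.04, -0.02, 0.00 and -0.09, each ± 0.09, which left 95% intervals no wider than -0.26 to 0.22. The second Keap1 probe set gave 0.42 ± 0.15 at 8 h (adjusted p = 0.145) and -0.34 ± 0.15 at 72 h (adjusted p = 0.201), with separated groups at both times, and the probe sets of the gene therefore differed.

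Gclc and Gclm encode the catalytic and the modifier subunit of glutamate-cysteine ligase, the first step of glutathione synthesis. All 8 of their differences were negative and none was called. Gclc differed by -0.12, -0.26, -0.25 and -0.18 at 2, 8, 24 and 72 h, each ± 0.22, and its widest spread was at 8 h, where 1 DEHP array read 10.60 and the others 11.38 and 11.51. Without that array the 8 h difference was 0.02. The second Gclc probe set gave -0.34 ± 0.18 at 8 h (adjusted p = 0.413 in limma), with its DEHP arrays all below its corn oil arrays. Gclm differed by -0.14, -0.29, -0.43 and -0.01, each ± 0.15. At 24 h its corn oil arrays read 11.71, 11.62 and 11.91 and its DEHP arrays 11.09, 11.18 and 11.68, which overlapped (adjusted p = 0.468). The second Gclm probe set gave -0.26 ± 0.09 at 24 h with separated groups (adjusted p = 0.481 in limma). At 8 h that probe set gave -0.07 ± 0.09 and its groups overlapped. Averaged over the times, Gclm differed by -0.22 ± 0.08 (adjusted p = 0.088) and Gclc by -0.20 ± 0.11 (adjusted p = 0.293). At 8 h, when Srxn1 rose, the upper bounds of the 95% intervals were 0.20 for Gclc and 0.02 for Gclm.

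Nqo1 encodes a quinone reductase often used as a readout of Nrf2. It differed by -0.31, -0.01, 0.25 and 0.40 at 2, 8, 24 and 72 h, each ± 0.18. At 72 h its corn oil arrays read 6.20, 6.33 and 5.79 and its DEHP arrays 6.25, 6.87 and 6.42, so that 1 DEHP array lay among the corn oil arrays (adjusted p = 0.197, 95% interval 0.03 to 0.78). Its probe set was the dimmest of those chosen for the 10 genes, with a mean signal at percentile 25.4 of all genes.

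Sod1, the cytosolic superoxide dismutase, and Gpx1, the main glutathione peroxidase of liver, gave bright probe sets and no call. Sod1 differed by 0.10, 0.02, 0.22 and 0.08, each ± 0.14. Gpx1 differed by 0.06, -0.11, -0.02 and 0.07, each ± 0.06. For Gpx1 the 95% intervals reached no further than -0.24 and 0.20 at any time. Its groups separated upward at 2 h and downward at 8 h by these small amounts, with adjusted p of 0.904 and 0.449.

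**Figure D4:**
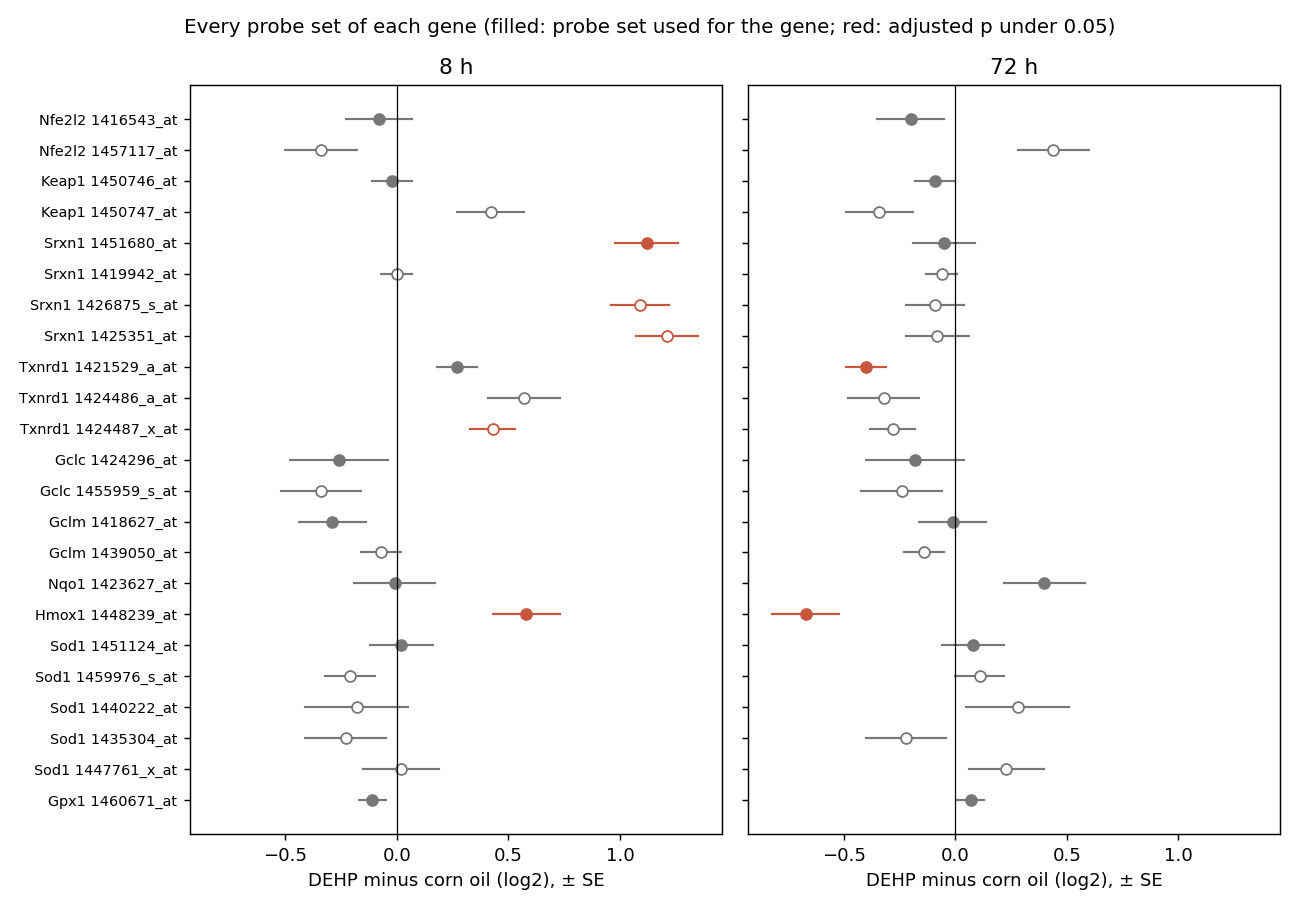
DEHP minus corn oil (log2, bars ± SE, 3 against 3 arrays) for all 23 probe sets of the 10 genes at 8 h and 72 h; filled points are the probe sets used for a gene and red marks an adjusted p under 0.05. Of the 4 Srxn1 probe sets, 3 lie at 1.09 to 1.21 at 8 h and 1 at 0.00, and all 3 Txnrd1 probe sets lie right of 0 at 8 h and left of it at 72 h.

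Other genes of the same system were counted over hand-written lists, and their counts stand beside shares over all genes of 0.83%, 4.13%, 0.297% and 4.18% called at 2, 8, 24 and 72 h. Of 16 regulators and partners of Nrf2, 2 were called, both higher at 8 h, when 1.28% of all genes were called higher. Nfe2l1 (Nrf1), the relative of Nrf2 that drives proteasome genes, read 9.38, 9.52 and 9.47 with corn oil and 10.17, 9.93 and 9.89 with DEHP, a difference of 0.54 ± 0.10 (adjusted p = 0.0027). Sqstm1 (p62), which binds Keap1 and carries it to autophagy, rose by 0.44 ± 0.09 (adjusted p = 0.00675). The call on Sqstm1 was lost with the mean of all its probe sets (0.26, adjusted p = 0.138), with the Actb covariate (adjusted p = 0.074), without both arrays numbered 14 (0.0635) and with the 6 arrays of the time alone (0.051). The median of the list was -0.10 at 8 h, against -0.02 over all genes, and 4 of its 16 differences were positive.

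Of 37 other listed Nrf2 target genes, 31 were measured. None was called at 2 h or 24 h, 3 rose at 8 h (all genes, 1.28% higher), and at 72 h 6 rose and 2 fell (all genes, 1.13% higher and 3.05% lower). At 8 h the genes were Entpd5, a nucleotidase of the endoplasmic reticulum, at 1.02 ± 0.12 (adjusted p = 1.91e-05), Gsr, which reduces glutathione disulfide, at 0.62 ± 0.11 (adjusted p = 0.00123), and the export pump Abcc4 at 0.46 ± 0.13 (adjusted p = 0.0377). Abcc4 was dim, at percentile 9.95 of the mean signal, and its groups overlapped at 8 h. The list's median was 0.03 at 8 h and 0.17 at 72 h, against -0.02 and -0.03 over all genes.

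Of the 6 targets higher at 72 h, 2 encode glutathione transferases. The glutathione transferase Gsta2 read 7.08, 8.93 and 8.84 with corn oil and 10.27, 10.10 and 9.73 with DEHP, a difference of 1.75 ± 0.37 (adjusted p = 0.0107). The call on Gsta2 was lost with the 6 arrays of the time alone (adjusted p = 0.0526). Corn oil replicate 1 was the low array, and without it the Gsta2 difference was 1.14 (adjusted p = 0.0322). The export pump Abcc3 rose by 0.93 ± 0.21 (adjusted p = 0.0146), and without that array it gave 0.69 (adjusted p = 0.0517). The epoxide hydrolase Ephx1 rose by 0.83 ± 0.17, the glutathione transferase Gstm4 by 0.85 ± 0.18, the biliverdin reductase Blvrb by 0.61 ± 0.13 and Entpd5 by 0.53 ± 0.12. Osgin1, an oxidative stress response gene, fell by 1.09 ± 0.24 (adjusted p = 0.0134, and 0.0677 without DEHP replicate 3), and glutathione synthetase (Gss) fell by 0.38 ± 0.11 (adjusted p = 0.049).

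Corn oil replicate 1 at 72 h also carried markers of exocrine pancreas, 1.76 above their mean, as did DEHP replicate 1 at 72 h (1.29), corn oil replicate 2 at 2 h (1.64), DEHP replicate 1 at 2 h (2.88) and, less, corn oil replicate 1 at 2 h (0.92). The part of these markers in the values was not tested. Without corn oil replicate 1 at 72 h and corn oil replicate 2 at 8 h, an alternative added after the data were seen, the Nrf2 targets called at 72 h were 4 higher and 1 lower in place of 6 and 2, and 3 were called at 8 h. Glutathione genes then numbered 3 higher and 0 lower at 8 h, and 0 higher and 1 lower at 72 h. Thioredoxin and peroxiredoxin genes then had 2 lower at 8 h in place of 1, and genes for selenoproteins or their synthesis 1 lower in place of 2. Calls also appeared where there had been none: 1 Nrf2 target and 1 NADPH gene lower and 1 haem or iron gene higher at 2 h, and 1 NADPH gene higher at 8 h.

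Glutathione genes showed both directions. Of 25 listed, 24 were measured, with 1 higher at 2 h, 3 higher and 1 lower at 8 h, none at 24 h and 2 lower at 72 h. Oplah, which returns 5-oxoproline to glutamate in the glutathione cycle, rose by 0.61 ± 0.13 at 2 h (adjusted p = 0.021) and by 0.79 ± 0.13 at 8 h (adjusted p = 0.000696). Glutaredoxin (Glrx), which removes glutathione from protein thiols, read 9.85, 9.49 and 10.09 with corn oil and 10.66, 10.59 and 10.71 with DEHP at 8 h, a difference of 0.84 ± 0.16 (adjusted p = 0.00218). The lowest of these Glrx readings came from corn oil replicate 2, described above for its Actb probe sets. With the Actb covariate Glrx gave 0.62 and no call (adjusted p = 0.0507). Chac1, which degrades glutathione, fell by 0.73 ± 0.18 at 8 h (adjusted p = 0.0202), and 3 of the 6 fits without an 8 h array lost that call. Cbs, which feeds homocysteine toward cysteine, fell by 0.48 ± 0.09 at 72 h (adjusted p = 0.00551).

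In the thioredoxin and peroxiredoxin system 18 of 21 listed genes were measured and 3 were called, 1 each at 2, 8 and 72 h, when 0.83%, 4.13% and 4.18% of all genes were called. Txnip, which binds and blocks thioredoxin, read 9.87, 10.03 and 9.21 with corn oil and 11, 11.56 and 11.05 with DEHP at 2 h, a difference of 1.5 ± 0.21 (adjusted p = 0.000324). Sesn3, a stress-induced sestrin, fell by 0.58 ± 0.12 at 8 h (adjusted p = 0.00388), a call lost with the Actb covariate (adjusted p = 0.0721) and with the 6 arrays of the time alone (0.0688). Prdx4, the peroxiredoxin of the endoplasmic reticulum, fell by 0.35 ± 0.10 at 72 h (adjusted p = 0.0416), and 5 of the 6 fits without an array of that time lost the call. Of 10 measured genes that remove superoxide or peroxide, none was called by limma at any time. The largest difference was 0.41 ± 0.14 for Sod3, the extracellular dismutase, at 8 h (adjusted p = 0.0937). Sod3 was called at 8 h with array weights and without both arrays numbered 14 (adjusted p down to 0.0246). It was also called without corn oil replicate 3 at 8 h (adjusted p = 0.0323).

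Of 13 measured genes of haem and iron, 1 was called higher at 8 h (Tfrc), against 1.28% of all genes. At 24 h 1 was called lower (Slc40a1), against 0.044%. At 72 h 1 was called higher (Blvrb), against 1.13%, and 1 lower (Tfrc), against 3.05%. The transferrin receptor Tfrc rose by 1.43 ± 0.26 at 8 h (adjusted p = 0.00174) and fell by 1.22 ± 0.26 at 72 h (adjusted p = 0.01), the same order of signs as Hmox1. The iron exporter ferroportin (Slc40a1) fell by 0.69 ± 0.13 at 24 h (adjusted p = 0.0144), a call lost in 3 of the 6 fits without an array of that time. Of 10 measured genes that supply NADPH, only the mitochondrial Idh2 was called, higher by 0.58 ± 0.11 at 72 h (adjusted p = 0.00537), and the mean of its probe sets gave 0.19 with no call. Of 15 genes for selenoproteins or their synthesis, 2 were called lower at 8 h, against 2.86% of all genes. At 72 h 1 was called lower, against 3.05%. Selenos (-0.55 ± 0.13) and Selenow (-0.43 ± 0.11) were called lower at 8 h and the deiodinase Dio1 (-0.81 ± 0.21) at 72 h. Leaving out single arrays of the time lost the call in 3 of 6 fits for Selenos (adjusted p up to 0.0909), in 4 of 6 for Selenow (up to 0.212) and in 4 of 6 for Dio1 (up to 0.155), and Selenow with the mean of its probe sets gave -0.18. Of 8 measured oxidases that release hydrogen peroxide, Pipox was called, lower by a difference of -0.48 ± 0.12 at 8 h. That call was lost in 3 of 6 fits without an 8 h array (adjusted p up to 0.167), and without both arrays numbered 14 the difference was -0.26.

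**Figure D5:**
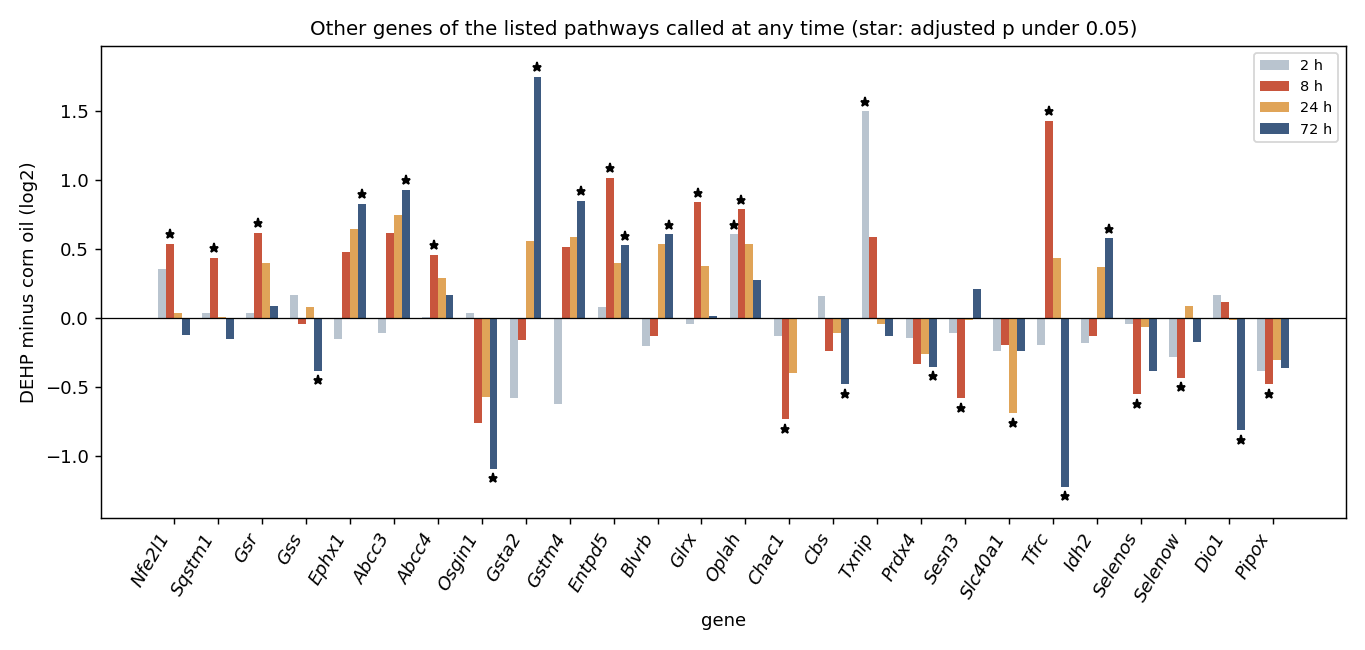
DEHP minus corn oil (log2, 3 against 3 arrays) at 2, 8, 24 and 72 h for every other listed gene called at any time, stars marking an adjusted p under 0.05. Txnip is high at 2 h (1.5), Tfrc at 8 h (1.43) and Gsta2 at 72 h (1.75), and Tfrc (-1.22) and Osgin1 (-1.09) are low at 72 h.

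The genes whose signal was most like that of the changed genes over the 24 arrays were listed as a description, without a test, since arrays of 1 group share their treatment. For Srxn1 they were Glrx (Pearson r = 0.90), the drug-metabolising cytochrome Cyp2b10 (r = 0.83) and Nploc4 (r = 0.83). Cyp2b10 differed by 0.97, 5.13, 0.34 and 1.47 at 2, 8, 24 and 72 h and was called at 8 h and 72 h (adjusted p = 0.00732 at 72 h), while Srxn1 was called at 8 h alone. For Txnrd1 they were Prmt3 (r = 0.89), Bysl (r = 0.89) and Riok2 (r = 0.88), each higher with DEHP at 8 h and lower at 72 h in the mean, with differences at 8 h of 0.39, 0.34 and 0.49. For Hmox1 they were the co-chaperone Dnaja1 (r = 0.80), Mtmr12 (r = 0.75) and Tmx1 (r = 0.75), and Dnaja1 fell by 0.82 at 72 h (adjusted p = 0.000407).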

How the data were processed

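Liver RNA was measured on 24 Affymetrix arrays of 45101 probe sets. Per the labels, the authors summarised the probes by RMA (version not given in the sources used here) and deposited log2 signals. The deposited table ranges from 2.84 to 14.55. Probe sets were named through the series' annotation table, in which 34958 had 1 symbol, 932 several and 9211 none, and each of 18194 genes took its probe set with the highest mean.

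Groups came from the labels. The study's text mentions 6 mice without tying them to arrays, and at 8 h the third corn oil array and the second DEHP array carry the same number, 14. These arrays are not copies (SD of their difference 0.282, against 0.177 for the closest 2 arrays). The number of arrays limits the precision.

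One model of the 8 group means over 24 arrays was fitted in R 4.3.3 with limma 3.58.1 (16 residual and 6.21 prior degrees of freedom). The p-values were adjusted by Benjamini-Hochberg over all 18194 genes, or over all probe sets where single probe sets are given. Calls had an adjusted p under 0.05. The script was tested on simulated data.

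The 10 genes and the lists were chosen with earlier results of these data known. The naming rule took all 10 genes, up to 4 called genes of each list by size (or the largest change where none was called), and for each gene that passed the F test the 3 most correlated genes. The last choice passed over the 10 genes, predicted genes and unnamed clones. The other called genes of the lists (Ephx1, Gstm4, Gss, Abcc4 and others that complete a count) were named after their values were seen. Listed genes without an annotated probe set were not analysed here. Alternatives covered blocks, filters, probe set choice, normalization, thresholds and leaving out arrays.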

Additional observations from a re-analysis of the deposited data

Results flagged for a closer look

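The effect of DEHP on 3 of the 10 genes differed between the times sampled. The F test between times in limma gave adjusted p-values of 0.00228 for Srxn1, 0.00911 for Hmox1 and 0.026 for Txnrd1. For Srxn1 the effect at 8 h differed from that at 2 h by 1.13, the effect at 24 h from that at 8 h by -0.95, and the effect at 72 h from that at 8 h by -1.18 (log2). Between 8 h and 72 h the effect on Hmox1 changed by -1.25 and that on Txnrd1 by -0.67. For Hmox1 these are effects of opposite sign, and for Txnrd1 the 8 h effect itself was not called with its chosen probe set.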

How the results depend on the processing

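Srxn1 at 8 h was called in all 14 other settings (0.86 to 1.25) and all 6 fits without an 8 h array (0.97 to 1.21). The 2 genes called at 8 h became 1, Srxn1, with an adjusted p under 0.01, with an added 1.5-fold threshold, without both arrays numbered 14, without the 2 corn oil arrays that stand apart, with the Actb covariate and with the 6 arrays of the time alone. Over the 14 other settings the number called at 8 h ranged from 1 to 3. Leaving out single arrays gave 1 to 2. The 2 called at 72 h became 1, Hmox1, with the mean of all probe sets and with the 1.5-fold threshold, and 0 at the stricter p (single arrays left out, 1 to 2). The number called on average over the times rose from 1 to 2, adding Gclm, with the replicate block, the block of the first arrays, the mean of all probe sets and array weights, and was 0 with the 1.5-fold threshold (single arrays left out, 1 to 2). The 3 genes that differed between times became 1 with the Actb covariate (single arrays left out, 2 to 3), and the 0 that differed between times in corn oil became 1, Gclm, with the mean of all probe sets. Genes with an effect at any time numbered 2 to 3 with single arrays left out and 2 to 3 over 13 other settings. The sign turned for Nfe2l2 at 72 h (0.12) and Sod1 at 24 h (-0.07) with the mean of all probe sets, for Keap1 at 72 h (0.05) with quantile normalization and for Gclc at 8 h (0.02) without DEHP replicate 1 (single arrays left out, -0.44 to 0.02), none of them called. The replicate numbers did not pair the arrays: deviations of same-numbered arrays at a time correlated with r from -0.35 to 0.14, over 0.1 in 1 of 12 pairs, and 7 of 24 arrays were closest to their own number. The cause of these changes was not tested.

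Over all named genes, 455 values kept their direction and side of the threshold under another setting, 57 lost the call, 2 gained it and 3 reversed. Without a single array the numbers were 184, 36, 1 and 1. Dim probe sets such as that of Nqo1 limit what small changes can be seen.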
